A study of Mus musculus with 15 samples.

Results

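The genes described are 10 transcripts that myeloid cells (macrophages, monocytes, dendritic cells and granulocytes) carry in quantity: Lyz2, Ctss, Tyrobp, C1qa, C1qb, C1qc, Fcer1g, Laptm5, Mrc1 and Cd68. They were chosen by symbol, with earlier results on the same arrays known in which several of them stood higher in injured than in uninjured kidney. They are 10 of 17097 genes that had a probe set of their own on the array, and all 10 were among the 13523 genes bright enough to be tested. The study measured RNA of cells sorted by flow cytometry for PDGFRa, a growth factor receptor on interstitial fibroblasts, from kidneys of adult C57BL/6 mice. It has 15 oligonucleotide arrays in 5 groups of 3. One group came from kidneys on day 14 of unilateral ureteral obstruction (UUO), a surgical block that leads to progressive scarring. Another 3 groups came from kidneys 3, 7 and 14 days after acute kidney injury brought on by folic acid, a tubule toxin at high dose. The last group was uninjured kidney. No genetic change is named for any group, and the labels give PDGFRa as the marker of the sort, with no word on whether blood cells were gated out. RNA was isolated with Trizol, amplified with a Nugen whole-transcriptome kit and labelled with biotin. The titles number the arrays 1 to 15, and these numbers are used here: arrays 1 to 3 are folic acid day 3, 4 to 6 day 7, 7 to 9 day 14, 10 to 12 UUO and 13 to 15 uninjured.

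Macrophages live between the tubules of every kidney, and monocytes enter from the blood after injury. They clear dead cells, present antigen and exchange growth factors with fibroblasts, and they lie next to them in scar tissue. Their surface receptors signal through small adaptor chains, their lysosomes digest what they take up, and they secrete the C1q complex that starts the classical complement cascade.

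All levels are the deposited log2 intensities, so 1 unit is a doubling of signal. Levels of different genes cannot be set against each other, because each probe set has its own brightness. A difference between groups is a log2 difference ± its standard error (SE) from one limma fit across all genes, and a call means an adjusted p below 0.05. The array medians lay between 4.93 and 5.06, and the number of arrays limits the precision. The labels do not tell whether the arrays of a group are separate animals, so a p-value here covers the spread between these arrays, which may be technical. In RNA of a bulk sort, more cells of a type and more RNA per cell cannot be told apart. The array's own negative controls were not used here, so a group near the bottom of the scale has a level that is poorly known and a difference that is compressed.

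Averaged over the 10 genes, the arrays fell into an order that followed the groups. The mean was 6.11 to 6.46 on UUO arrays, 6.13 to 6.74 at folic acid day 3, 8.23 to 9.47 at day 7, 7.71 to 9.09 at day 14 and 5.30 to 5.55 on uninjured arrays. The day 7 and day 14 arrays stood above every other array, the UUO and day 3 arrays overlapped each other, and the uninjured arrays were lowest. Array 8 of the day 14 group was the lowest of the 6 late folic acid arrays, at 7.71, and arrays 6 and 5 of day 7 were the highest of all, at 9.47 and 9.25. Array 8 is set apart again below, with values given without it.

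**Figure D1:**
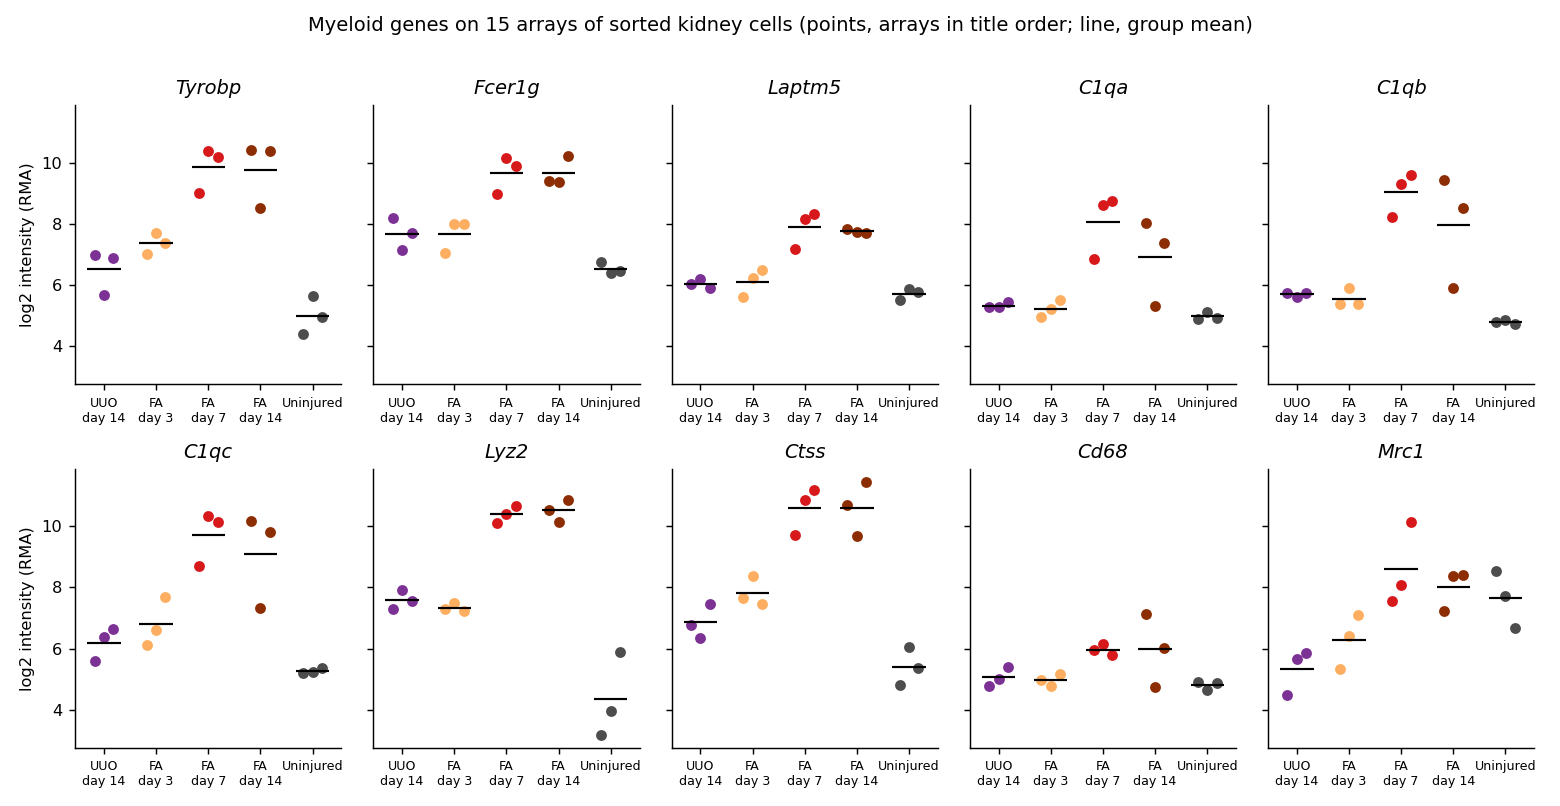
Log2 intensity of each of the 10 genes (vertical axis) on each of 15 arrays (points), in the groups UUO day 14, folic acid (FA) days 3, 7 and 14, and uninjured kidney. Lines are group means of 3 arrays. Except for Mrc1, the FA day 7 points lie above all UUO, day 3 and uninjured points of the same gene.

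Tyrobp and Fcer1g encode the adaptor chains that carry the activating signal of many myeloid surface receptors, Tyrobp (also called DAP12) for receptors such as Trem2 and Fcer1g for Fc receptors. The Tyrobp probe set, 1450792_PM_at, read 7.00, 5.68 and 6.89 on the UUO arrays, 7.00, 7.69 and 7.38 at folic acid day 3, 9.00, 10.38 and 10.20 at day 7, 10.43, 8.51 and 10.38 at day 14 and 4.41, 5.63 and 4.96 on uninjured arrays. No injured array reached down into the uninjured range, although UUO array 11 lay barely above uninjured array 14. The mean differed from uninjured kidney by 1.52 ± 0.56 in UUO, 2.36 ± 0.56 at day 3, 4.86 ± 0.56 at day 7 and 4.77 ± 0.56 at day 14, which was 5.40 without array 8. Fcer1g, probe set 1418340_PM_at, read 8.19, 7.13 and 7.69 in UUO, 7.04, 8.00 and 8.00 at day 3, 8.97, 10.15 and 9.90 at day 7, 9.40, 9.37 and 10.22 at day 14 and 6.76, 6.39 and 6.45 on uninjured arrays. Its UUO and day 3 arrays covered much the same range, and its day 7 and day 14 arrays did as well. Its differences from uninjured kidney were 1.14 ± 0.38, 1.15 ± 0.38, 3.14 ± 0.38 and 3.13 ± 0.38 in UUO and at days 3, 7 and 14.

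Laptm5 encodes a lysosomal membrane protein of blood cells that limits receptor signalling. Its brighter probe set, 1417721_PM_s_at, read 6.03, 6.19 and 5.92 in UUO, 5.60, 6.22 and 6.48 at day 3, 7.19, 8.15 and 8.31 at day 7, 7.84, 7.74 and 7.71 at day 14 and 5.51, 5.87 and 5.77 in uninjured kidney. The 3 day 14 arrays agreed closely, array 8 included, which was not so for most of the other genes. The differences from uninjured kidney were 0.33 ± 0.28 in UUO, 0.38 ± 0.28 at day 3, 2.17 ± 0.28 at day 7 and 2.04 ± 0.28 at day 14. Laptm5 was the only one of the 10 genes with another probe set of its own, 1426025_PM_s_at, which was dimmer. That probe set read 5.37, 7.14 and 6.16 at day 7 and 6.31, 5.26 and 6.34 at day 14, against 4.90, 5.00 and 4.98 in uninjured kidney. On it array 8 was again the lowest of its group, unlike on the brighter probe set.

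C1qa, C1qb and C1qc encode the 3 chains of C1q, the recognition part of the first complement component, which tissue macrophages make. The genes are neighbours on chromosome 4, in the order C1qb, C1qc, C1qa among protein-coding genes. C1qa, probe set 1417381_PM_at, read 5.27, 5.26 and 5.43 in UUO, 4.95, 5.22 and 5.50 at day 3, 6.84, 8.61 and 8.77 at day 7, 8.04, 5.31 and 7.38 at day 14 and 4.90, 5.11 and 4.93 on uninjured arrays. C1qb, probe set 1417063_PM_at, read 5.73, 5.61 and 5.75 in UUO, 5.36, 5.89 and 5.38 at day 3, 8.22, 9.32 and 9.59 at day 7, 9.45, 5.91 and 8.53 at day 14 and 4.79, 4.84 and 4.72 on uninjured arrays. C1qc, probe set 1449401_PM_at, read 5.58, 6.38 and 6.63 in UUO, 6.11, 6.61 and 7.68 at day 3, 8.71, 10.34 and 10.14 at day 7, 10.17, 7.34 and 9.82 at day 14 and 5.20, 5.25 and 5.35 on uninjured arrays. All 3 chains had their widest spread at day 14, where array 8 was the lowest. It lay within the UUO range in C1qa and above every UUO array in C1qb and C1qc. At day 7 the differences from uninjured kidney were 3.09 ± 0.60 for C1qa, 4.26 ± 0.66 for C1qb and 4.47 ± 0.67 for C1qc. At day 14 they were 1.93 ± 0.60, 3.18 ± 0.66 and 3.84 ± 0.67, and without array 8 2.73, 4.21 and 4.73. Array 4 left out moved the day 7 difference of C1qa to 3.70, and array 7 left out moved the day 14 difference of C1qb to 2.44. At day 3 and in UUO the chains lay closer to uninjured kidney, with differences of 0.24 ± 0.60 to 1.54 ± 0.67 at day 3 and 0.34 ± 0.60 to 0.93 ± 0.67 in UUO.

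PU.1 is the transcription factor that many myeloid genes depend on, and its core motif was looked for in the promoters of the genes. The sequences below, from RefSeq on GRCm38.p6, are shown because C1qb and C1qc moved together on these arrays while Mrc1 did not follow them. Each runs 5′ to 3′ along its gene, spans 300 bases around the gene's start, and has the motif GAGGAA, read on either strand, in capitals. C1qb lies at chr4:136886151-136886450, minus strand, C1qc at chr4:136892865-136893164, minus strand and Mrc1 at chr2:14229164-14229463, plus strand.
C1qb: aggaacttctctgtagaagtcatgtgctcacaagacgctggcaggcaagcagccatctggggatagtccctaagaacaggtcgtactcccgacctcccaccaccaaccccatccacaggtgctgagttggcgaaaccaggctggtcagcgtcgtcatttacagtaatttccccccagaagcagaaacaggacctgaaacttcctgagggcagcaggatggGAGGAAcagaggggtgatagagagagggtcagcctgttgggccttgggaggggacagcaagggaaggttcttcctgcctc
C1qc: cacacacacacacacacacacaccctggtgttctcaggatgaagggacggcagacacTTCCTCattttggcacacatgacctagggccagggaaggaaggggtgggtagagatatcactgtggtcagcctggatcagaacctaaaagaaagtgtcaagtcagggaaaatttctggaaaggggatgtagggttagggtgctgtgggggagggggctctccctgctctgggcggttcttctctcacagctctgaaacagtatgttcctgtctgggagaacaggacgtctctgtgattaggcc
Mrc1: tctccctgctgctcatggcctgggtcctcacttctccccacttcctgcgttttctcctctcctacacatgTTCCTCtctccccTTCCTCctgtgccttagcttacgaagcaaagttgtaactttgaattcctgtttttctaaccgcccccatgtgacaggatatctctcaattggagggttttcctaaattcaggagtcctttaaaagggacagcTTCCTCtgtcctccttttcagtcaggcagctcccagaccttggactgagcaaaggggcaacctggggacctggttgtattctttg
The C1qb and C1qc windows held 1 match each and the Mrc1 window 3. Of the 10 genes 8 had a promoter in the RefSeq table, and 6 of these 8 held at least 1 match: Ctss and Cd68 with 2 each and Laptm5 with 1, besides those shown. Lyz2 and Fcer1g held none. The motif is short, and 28.3% of all 32851 promoters of the table held it. The E-box CACGTG, bound by other factors and looked for in the same way, was in none of the 8 and in 7.2% of all promoters. A match describes the letters in the window and not a bound site.

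Lyz2, Ctss and Cd68 belong to the digestive machinery of phagocytes. Lyz2 encodes the lysozyme of macrophages and granulocytes, and its probe set, 1439426_PM_x_at, is of a type whose probes can also bind related transcripts. It read 7.30, 7.93 and 7.57 in UUO, 7.29, 7.49 and 7.21 at day 3, 10.12, 10.41 and 10.66 at day 7, 10.55, 10.15 and 10.87 at day 14 and 3.17, 3.96 and 5.90 on uninjured arrays. The uninjured arrays differed widely among themselves, and array 13 was near the bottom of its array's scale, yet every injured array was above all of them. The neighbouring lysozyme gene Lyz1 stayed between 4.19 and 4.73 on its own probe set on all 15 arrays. Lyz2 differed from uninjured kidney by 3.26 ± 0.51 in UUO, 2.99 ± 0.51 at day 3, 6.05 ± 0.51 at day 7 and 6.18 ± 0.51 at day 14. Without uninjured array 15 these differences were 4.04, 3.77, 6.83 and 6.96, and without array 13 they were 2.67, 2.40, 5.47 and 5.59. Its day 3 and UUO arrays overlapped, as did its day 7 and day 14 arrays, so the levels formed 3 tiers.

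Ctss encodes cathepsin S, the lysosomal protease that trims the invariant chain of MHC class II. Its probe set, 1448591_PM_at, read 6.76, 6.36 and 7.47 in UUO, 7.67, 8.36 and 7.46 at day 3, 9.70, 10.88 and 11.20 at day 7, 10.69, 9.69 and 11.47 at day 14 and 4.81, 6.07 and 5.37 in uninjured kidney. The day 3 arrays lay at the upper end of the UUO arrays or above them, and all 6 later folic acid arrays lay above both. The differences from uninjured kidney were 1.45 ± 0.51 in UUO, 2.42 ± 0.51 at day 3, 5.18 ± 0.51 at day 7 and 5.21 ± 0.51 at day 14. Cd68 encodes macrosialin, a membrane protein of late endosomes and lysosomes that is widely stained to find macrophages. Its probe set, 1449164_PM_at, read 4.78, 5.00 and 5.39 in UUO, 4.96, 4.77 and 5.17 at day 3, 5.94, 6.14 and 5.80 at day 7, 7.13, 4.75 and 6.03 at day 14 and 4.90, 4.63 and 4.88 on uninjured arrays. Only the day 7 arrays all lay above the uninjured ones, and at day 14 array 7 was the highest of all 15 while array 8 was within the uninjured range. The differences from uninjured kidney were 0.25 ± 0.43 in UUO, 0.16 ± 0.43 at day 3, 1.16 ± 0.43 at day 7 and 1.17 ± 0.43 at day 14.

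Mrc1, the mannose receptor that tissue macrophages use to take up glycoproteins, did not share this order. Its probe set, 1450430_PM_at, read 4.50, 5.67 and 5.87 in UUO, 5.32, 6.40 and 7.12 at day 3, 7.57, 8.09 and 10.16 at day 7, 7.22, 8.37 and 8.42 at day 14 and 8.53, 7.72 and 6.69 on uninjured arrays. It was the only one of the 10 whose uninjured mean lay above its UUO and day 3 means, and the only one whose UUO arrays all lay below the uninjured ones. The difference from uninjured kidney was -2.30 ± 0.71 in UUO, -1.37 ± 0.71 at day 3, 0.96 ± 0.71 at day 7 and 0.36 ± 0.71 at day 14. At days 3, 7 and 14 its arrays overlapped the uninjured arrays.

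Because the genes were picked for these contrasts, their counts against uninjured kidney are given as a description and nothing is read from them. Called higher were 1 of the 10 in UUO (Lyz2), beside 9.07% of all genes tested, and 3 at day 3 (Lyz2, Ctss and Tyrobp), beside 10.6%. At day 7 there were 8, all but Mrc1 and Cd68, beside 7.5% of all genes, and at day 14 the same 8 less C1qa, 7 in all, beside 4.2%. In UUO 1 gene, Mrc1, was called lower, beside 7.52% of all genes. In UUO 8 of the 10, all but Mrc1 and Cd68, had every array above every uninjured array, which held for 20.3% of all genes tested.

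**Figure D2:**
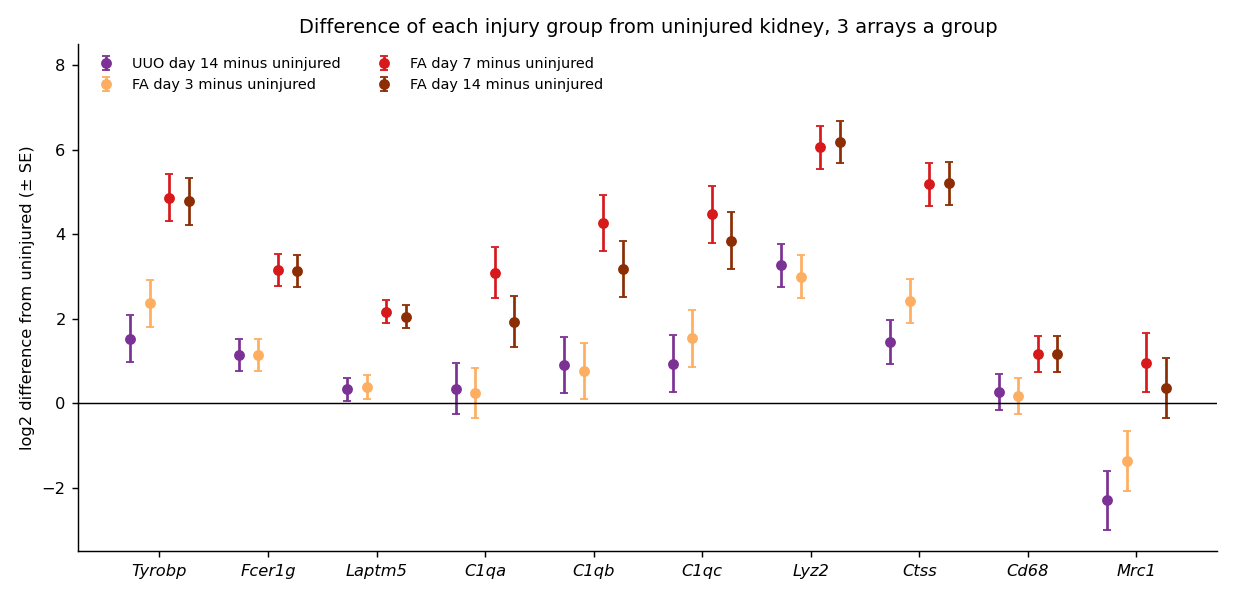
Log2 difference of each injury group from uninjured kidney (vertical axis) for the 10 genes (horizontal axis), with bars of ± 1 SE from the fit, 3 arrays a group. Lyz2 has the largest differences, 6.05 at FA day 7 and 6.18 at day 14, and Mrc1 is below 0 in UUO and at FA day 3.

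The comparison of the models at one time set UUO against folic acid, both at day 14. The genes were chosen with results of these arrays known, which holds for every p-value below. Of the 10, 6 were called lower in UUO, beside 1.75% of all genes tested, and none higher. The largest difference among them was that of Ctss, with a mean of 6.86 ± 0.56 in UUO and 10.62 ± 0.89 after folic acid (SD, n = 3 each), a difference of -3.76 ± 0.51 (adjusted p = 0.00437 by limma with Benjamini-Hochberg adjustment). Next came Tyrobp at -3.25 ± 0.56 (adjusted p = 0.0108), Lyz2 at -2.92 ± 0.51 (adjusted p = 0.0114) and C1qc at -2.91 ± 0.67 (adjusted p = 0.0385). The other adaptor gene was called as well, Fcer1g at -1.99 ± 0.38 (adjusted p = 0.0161) and so was Laptm5 at -1.72 ± 0.28 (adjusted p = 0.00854). Not called were C1qb (-2.27 ± 0.66, adjusted p = 0.0880), C1qa (-1.59 ± 0.60, adjusted p = 0.188), Mrc1 (-2.66 ± 0.71, adjusted p = 0.0638) and Cd68 (-0.92 ± 0.43, adjusted p = 0.297). In 8 of the 10 every UUO array lay below every folic acid array, against 11.1% of all genes, the exceptions being C1qa and Cd68, where array 8 overlapped UUO. Without array 8, 9 of the 10 were called, C1qa at -2.39, C1qb at -3.30 and Cd68 at -1.53, and Mrc1 was not. Tyrobp then stood at -3.88 and C1qc at -3.80. Array 8 was singled out as low in most of these same genes, so the count without it is a description. With single arrays left out, 163 to 698 of all genes were called, against 410 with all 15. The C1qc call ended for 9 of the 15 arrays when left out singly.

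Within the folic acid course, day 7 was set against day 3. At day 7 5 of the 10 were called higher, beside 0.274% of all genes tested, where few genes passed at all. C1qb rose by 3.50 (SE 0.66, adjusted p = 0.0353), Lyz2 by 3.07 (SE 0.51, adjusted p = 0.0199) and Ctss by 2.77 (SE 0.51, adjusted p = 0.0314). Fcer1g rose by 1.99 (SE 0.38, adjusted p = 0.0353) and Laptm5 by 1.79 (SE 0.28, adjusted p = 0.0149). All 10 genes had every day 7 array above every day 3 array, which held for 6.39% of all genes. The other 5 did not pass: C1qc at 2.93 ± 0.67 (adjusted p = 0.0779), C1qa at 2.85 ± 0.60 (adjusted p = 0.0548), Tyrobp at 2.50 ± 0.56 (adjusted p = 0.0666), Mrc1 at 2.32 ± 0.71 (adjusted p = 0.197) and Cd68 at 1.00 ± 0.43 (adjusted p = 0.401). These calls were fragile, since 0 of the 10 passed without day 3 array 1 or without day 7 array 5, and 8 passed without day 14 array 8, which changes only the shared estimate of spread. One array left out also left 1 call without array 2 or 3, 2 without array 6 or 15, and 3 without array 12, 13 or 14.

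From day 3 to day 14 the same number, 5 of the 10, were called higher, beside 1.22% of all genes: Lyz2 at 3.19 ± 0.51 (adjusted p = 0.00631), Ctss at 2.79 ± 0.51 (adjusted p = 0.0132), Tyrobp at 2.41 ± 0.56 (adjusted p = 0.0382), Fcer1g at 1.98 ± 0.38 (adjusted p = 0.0157) and Laptm5 at 1.66 ± 0.28 (adjusted p = 0.00752). None of the C1q chains was among them, with 1.68 ± 0.60 for C1qa, 2.42 ± 0.66 for C1qb and 2.31 ± 0.67 for C1qc. Without array 8 all 3 chains passed, at 2.48, 3.45 and 3.19, and 9 of the 10 genes were called, Tyrobp at 3.04. This count too is a description. With single arrays left out, 155 to 527 of all genes were called, against 412 with all 15. The Tyrobp call was the least secure and ended for 8 of the 15 arrays when left out singly. Leaving out day 3 array 1 or array 3 left 3 calls. Between day 14 and day 7 none of the 10 was called by limma, beside 0.0518% of all genes, and none had an unadjusted p under 0.05. The 95% interval of that difference was -0.97 to 1.23 for Lyz2, -0.72 to 0.48 for Laptm5 and -2.52 to 0.36 for C1qb, so for C1qb a fall of more than 2 units is inside it.

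At day 14 array 8 stood apart from arrays 7 and 9, whose means over the 10 genes were 9.09 and 9.08, in some of the genes and not in others. Compared with the mean of arrays 7 and 9, array 8 differed by -3.08 in C1qb, -2.66 in C1qc, -2.40 in C1qa, -1.89 in Tyrobp, -1.83 in Cd68 and -1.39 in Ctss. The difference was -0.57 in Lyz2, -0.45 in Fcer1g, -0.04 in Laptm5 and 0.55 in Mrc1. The C1q chains thus differed most, Laptm5 was level on its brighter probe set, and Mrc1 was higher on array 8. On the dimmer Laptm5 probe set array 8 read 5.26, against 6.31 and 6.34 on arrays 7 and 9. Over all 13523 genes the median of the same difference was -0.05. Because all array medians were alike after RMA, this cannot tell whether array 8 was dimmer before processing. Other lists differed on array 8 too: 14 of 14 phagocyte effector genes were below the other arrays (median -1.43), as were 25 of 28 myeloid receptors (median -0.75) and 12 of 12 fibroblast markers (median -0.90), while 10 of 11 proximal tubule markers were above (median 0.99). The proximal tubule list mean was 9.35 on array 7, 9.31 on array 8 and 7.36 on array 9. In that list array 8 was thus level with array 7, and array 9 was lower. At day 7 array 4 was below the mean of arrays 5 and 6 in all 10 genes (median -1.26), and there too 10 of 11 proximal tubule markers were above (median 2.97). The part that tubule RNA has in these values was not tested.

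**Figure D3:**
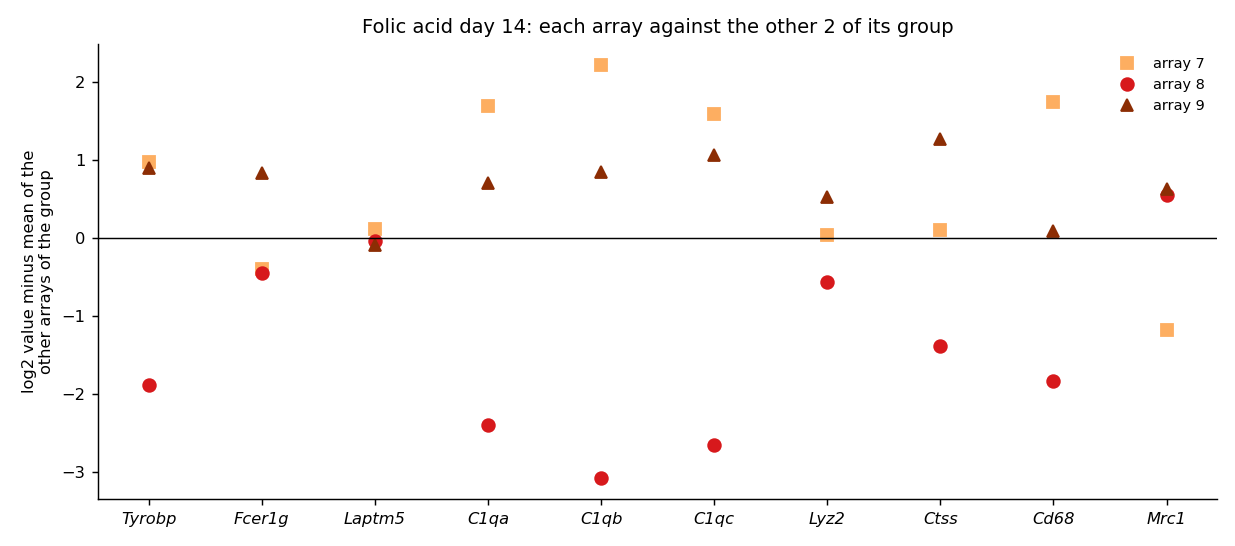
Each folic acid day 14 array against the mean of the other arrays of its group (log2 difference, vertical axis) for the 10 genes, with symbols for arrays 7, 8 and 9. Array 8 is at -3.08 in C1qb and level with the others in Laptm5, which is shown by its brighter probe set.

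Across the 15 arrays, 8 of the 10 genes followed the mean of the other 9 closely, with a Pearson correlation of 0.864 for Lyz2 up to 0.981 for C1qc, while Cd68 had 0.796 and Mrc1 0.503. These values are a description: the arrays share their groups, and the group differences make up most of them. With each group's mean taken out, C1qa kept 0.929, C1qc 0.882, C1qb 0.812, Tyrobp 0.811 and Ctss 0.738, whereas Lyz2 had 0.209 and Mrc1 0.160. The C1q chains, Tyrobp and Ctss therefore varied together with the groups pooled, and their largest deviations were on array 8. Single groups did not all share this. On UUO array 11 Tyrobp differed from the mean of the other arrays of its group by -1.26 and C1qc by 0.27. On day 3 array 3 the same differences were -0.56 for Ctss and 1.32 for C1qc. The spread of Lyz2 lay mostly in the uninjured group, where its level is poorly known, and on arrays 4 and 8 Lyz2 too was the lowest of its group. Among pairs, C1qa with C1qb had 0.940 within groups, C1qa with C1qc 0.918 and Ctss with Tyrobp 0.868. Of genes outside the 10, the profiles most like their mean over 15 arrays were those of Ly86 (0.968), Ms4a7 (0.958), Stab1 (0.955), Mpeg1 (0.954), Bcl2a1a (0.953), Cd52 (0.950), Lcp1 (0.929), Cd14 (0.928), Apoe (0.919) and Fcgr3 (0.918). Within groups the nearest were Fcgr2b (0.925), Fcgr3 (0.924), Aif1 (0.914), Clec2d (0.904) and C5ar1 (0.892).

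Other genes of the same cells were read from lists of known markers. Over all genes tested, 9.07% were called higher and 7.52% lower than in uninjured kidney in UUO, 10.6% and 6.39% at day 3, 7.5% and 4.19% at day 7, and 4.2% and 1.47% at day 14, and the counts of every list stand beside these shares. Of 23 tested myeloid surface receptors, limma called 0 in UUO and 0 at day 3, 6 higher at day 7 and 5 higher at day 14, all against uninjured kidney and none lower; at an unadjusted p under 0.05 the list had 1 lower in UUO and none at day 3. The list's median log2 difference was 0.04 in UUO, -0.01 at day 3, 0.49 at day 7 and 0.64 at day 14, beside -0.01, 0.02, 0.01 and 0.02 over all genes. At day 7 the Fc receptor Fcgr3 rose (log2 2.94, SE 0.66, adjusted p = 0.0133), as did Adgre1, the F4/80 antigen of mouse macrophages (log2 1.91, SE 0.43, adjusted p = 0.0130), and the endotoxin co-receptor Cd14 (log2 1.76, SE 0.42, adjusted p = 0.0187). The beta-glucan receptor Clec7a read 3.60, 3.79 and 4.09 in UUO, 3.34, 3.51 and 3.50 at day 3, 4.43, 4.90 and 4.90 at day 7, 6.76, 5.62 and 7.11 at day 14 and 3.39, 3.74 and 3.31 in uninjured kidney. It had its highest arrays at day 14 (log2 3.02, SE 0.31, adjusted p = 1.46e-04) and was lower in UUO than at folic acid day 14 (log2 -2.67, SE 0.31, adjusted p = 0.00163). Cd14 was the other receptor lower in UUO than at folic acid day 14 (log2 -1.73, SE 0.42, adjusted p = 0.0463). Csf1r, the growth factor receptor on which most macrophages depend, was not called at day 7 (log2 0.56, SE 0.26, adjusted p = 0.197) or day 14 (log2 0.66, SE 0.26, adjusted p = 0.175). Single arrays stood out in some receptors: Itgam, the CD11b chain, read 7.45 on day 7 array 5 and 5.34 on day 14 array 9 and at most 3.76 elsewhere, and Cd163, a scavenger receptor, read 7.20 on day 7 array 6 and at most 4.01 elsewhere.

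The adaptor chains signal through kinases and linkers downstream of them. Of 16 tested genes of that signalling list, 0 were called higher and 1 lower in UUO, 0 higher and 2 lower at day 3, 1 higher at day 7 and 1 at day 14, the last 2 being Fcgr3, which the receptor list also holds. Over all genes 7.52% were lower in UUO, 6.39% lower at day 3, 7.5% higher at day 7 and 4.2% higher at day 14, so these counts were near the background. At an unadjusted p under 0.05 by limma, 6 of the 16 were higher and 1 lower at day 7. At day 14 they were 5 and 1, beside 2018 and 1638 of 13523 genes higher at days 7 and 14. The list's median log2 difference was -0.05 in UUO, 0.02 at day 3, 0.31 at day 7 and 0.38 at day 14. Vav1, an exchange factor, fell in UUO (log2 -0.57, SE 0.16, adjusted p = 0.0242) and at day 3 (log2 -0.79, SE 0.16, adjusted p = 0.00444). The phospholipase gene Plcg2 fell at day 3 (log2 -0.74, SE 0.22, adjusted p = 0.0364), and at day 14 it was higher than at day 3 (log2 1.38, SE 0.22, adjusted p = 0.00631).

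Phagocyte effector genes had most calls at days 7 and 14. Of 14 tested, 2 were called higher in UUO, 3 at day 3, 7 at day 7 and 6 at day 14, with none lower, beside 9.07%, 10.6%, 7.5% and 4.2% of all genes. The UUO count was close to that background. The list's median was 0.24, 0.25, 1.50 and 1.46. Mpeg1, the pore-forming perforin-2 of macrophages, read 6.02, 5.74 and 6.05 in UUO, 6.38, 6.45 and 5.95 at day 3, 8.09, 8.39 and 9.22 at day 7, 9.05, 7.11 and 9.35 at day 14 and 6.01, 4.48 and 4.99 in uninjured kidney. It rose at day 7 (log2 3.41, SE 0.53, adjusted p = 0.00142) and day 14 (log2 3.34, SE 0.53, adjusted p = 0.00311) and was lower in UUO than at folic acid day 14 (log2 -2.57, SE 0.53, adjusted p = 0.0228). Ctsc, the cathepsin that activates granule proteases, rose in all 4 injury groups, in UUO least (log2 1.84, SE 0.43, adjusted p = 0.0117) and at day 7 most (log2 2.98, SE 0.43, adjusted p = 9.35e-04). Plac8 had another order, with 9.79, 9.96 and 9.84 in UUO and 10.07, 9.57 and 10.00 at day 3, above 9.06, 7.18 and 7.84 at day 14 and 6.34, 6.90 and 6.47 in uninjured kidney. It was higher in UUO than at folic acid day 14 (log2 1.84, SE 0.39, adjusted p = 0.0251), opposite to Mpeg1. Among myeloid transcription factors, 11 tested, the PU.1 gene Spi1 rose at day 7 (log2 0.84, SE 0.22, adjusted p = 0.0258), as did Irf8 (log2 1.55, SE 0.39, adjusted p = 0.0242), while Cebpb, which many cell types use, rose in all 4 groups (log2 3.40, SE 0.24, adjusted p = 4.03e-06 in UUO and log2 2.85, SE 0.24, adjusted p = 1.82e-05 at day 7). The list had 3 called higher and 1 lower in UUO, 2 and 1 at day 3, 4 and 0 at day 7, and 1 and 0 at day 14.

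Genes linked to alternative activation of mouse macrophages, the group in which Mrc1 is usually counted, were mostly too dim to test, with 5 of 12 tested. Of these, 1 was called higher in UUO, 1 at day 3, 3 at day 7 and 1 at day 14. At day 7 they were the transglutaminase gene F13a1 (log2 3.56, SE 0.61, adjusted p = 0.00269), the scavenger receptor gene Stab1 (log2 2.07, SE 0.28, adjusted p = 5.59e-04) and Mrc2 (log2 1.82, SE 0.39, adjusted p = 0.0107), which fibroblasts also make and which was the 1 called in UUO and at day 3. F13a1 and Stab1 were also higher at day 7 than at day 3 (log2 3.00, SE 0.61, adjusted p = 0.0461, and log2 1.67, SE 0.28, adjusted p = 0.0199). Of 7 tested genes of classical activation, Cd86 was the only one called higher at day 7 and at day 14, and 0 were called in UUO and at day 3, also at an unadjusted p under 0.05. At that unadjusted threshold by limma, 1 was higher at day 7 and 4 at day 14, beside 2018 and 1638 of 13523 genes. The list's median log2 difference at day 14 was 0.76. From day 3 to day 14, 2 of the 7 were called higher, beside 1.22% of all genes.

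C1q acts with the proteases C1r and C1s and their inhibitor, which cells other than macrophages make. The list read here held these genes and also the complement genes C2 and C4b. Of its 5 tested genes, C1ra, C1s1, C2, C4b and Serping1, 3 were called higher in UUO, 2 at day 3, 3 at day 7 and 1 at day 14. The inhibitor gene Serping1 was called in all 4, at 3.46 ± 0.34 in UUO (adjusted p = 3.93e-05), 2.73 ± 0.34 at day 3 (adjusted p = 2.00e-04), 3.33 ± 0.34 at day 7 (adjusted p = 7.56e-05) and 2.45 ± 0.34 at day 14 (adjusted p = 0.00128). Its difference was of like size in UUO and at day 7, whereas the C1q chains differed by less than 1 in UUO and by more than 3 at day 7, and UUO was not tested against day 7. Genes of lysosomes in general, 14 tested, had 3 called higher and 1 lower in UUO and at day 3, and 4 higher and 1 lower at days 7 and 14, with medians of 0.64, 0.50, 0.57 and 0.51. The shares over all genes were 9.07% higher and 7.52% lower in UUO, 10.6% and 6.39% at day 3, 7.5% and 4.19% at day 7 and 4.2% and 1.47% at day 14, and 1 gene lower of 14 was near that background in UUO and at day 3.

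Markers shared by all leukocytes did not all move one way. Of 16 tested, 0 were called higher and 2 lower in UUO, 0 and 3 at day 3, 3 and 0 at day 7, and 4 and 0 at day 14. Beside them stood 7.52% of all genes lower in UUO and 6.39% at day 3, and 7.5% higher at day 7 and 4.2% at day 14. The mean log2 intensity over the list was 5.34 to 5.61 in UUO, 5.24 to 5.61 at day 3, 5.90 to 6.64 at day 7, 5.95 to 6.98 at day 14 and 5.41 to 5.55 in uninjured kidney. Cd52, a surface glycoprotein of leukocytes, rose at day 7 (log2 2.73, SE 0.41, adjusted p = 0.00120) and day 14 (log2 3.33, SE 0.41, adjusted p = 6.41e-04) and was lower in UUO than at folic acid day 14 (log2 -3.28, SE 0.41, adjusted p = 0.00258). The actin bundler Lcp1 (log2 3.14, SE 0.64, adjusted p = 0.00821) and the actin regulator Coro1a (log2 2.64, SE 0.75, adjusted p = 0.0403) rose at day 7. Ptprc, which encodes CD45, read 4.74, 4.81 and 6.82 in UUO, 3.85, 4.24 and 4.28 at day 3, 5.79, 6.93 and 9.02 at day 7, 5.99, 7.05 and 9.12 at day 14 and 3.97, 4.17 and 5.01 in uninjured kidney. Its arrays varied widely within groups, and it was not called at day 7 (log2 2.87, SE 0.87, adjusted p = 0.0518) or day 14 (log2 3.01, SE 0.87, adjusted p = 0.0653), and its brightest arrays were 9 and 6. Cd53 and Was, by contrast, fell in UUO (log2 -1.85, SE 0.58, adjusted p = 0.0456, and log2 -0.93, SE 0.25, adjusted p = 0.0249) and at day 3 (log2 -1.85, SE 0.58, adjusted p = 0.0444, and -1.11 ± 0.25 for Was). The part of leukocyte RNA in the 10 genes was not tested.

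MHC class II genes, 7 tested, are carried by macrophages, dendritic cells and B cells, and 3 were called higher in UUO, 1 at day 3, 4 at day 7 and 5 at day 14, with 1 (Ciita) called lower at day 3. H2-Aa read 8.99, 9.09 and 9.64 in UUO, 7.11, 7.29 and 7.18 at day 3, 10.72, 10.80 and 10.74 at day 7, 10.87, 11.00 and 11.20 at day 14 and 6.45, 6.57 and 6.81 on uninjured arrays. It was as bright on array 8 as on arrays 7 and 9, but 6 of the 7 genes of the list were below those arrays on array 8 (median -0.70), H2-Ab1 among them with 8.89 on array 8 against 10.26 and 10.34. H2-Aa was above uninjured kidney in UUO (log2 2.63, SE 0.17, adjusted p = 2.05e-06). It was lower in UUO than at folic acid day 14 (log2 -1.78, SE 0.17, adjusted p = 7.99e-04).

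Markers of other blood cells gave few calls. The T cell list mean lay between 4.82 and 5.03 on all 15 arrays and the NK cell list mean between 4.39 and 4.66. These levels were near or below the array medians of 4.93 to 5.06. Tested were 8 of 14 listed T cell genes, 4 of 9 NK cell, 2 of 7 mast cell and 6 of 10 dendritic cell genes. The others were too dim or had no probe set of their own, so flat lists cannot tell whether these cells were absent. Of 8 tested T cell genes limma called 0 at days 3, 7 and 14 and 1 lower in UUO (Cd3d, log2 -0.43, SE 0.14, adjusted p = 0.0496), and at an unadjusted p under 0.05 there were 1 higher at day 3 and 1 lower at each of days 7 and 14. The 6 tested dendritic cell genes, the 4 NK cell genes and the 2 mast cell genes had 0 calls against uninjured kidney in any injury group, with at most 1 gene per list and group at an unadjusted p under 0.05. Of 6 tested B cell genes Blnk, which macrophages also express, was the only one called, at day 14 (log2 1.32, SE 0.26, adjusted p = 0.0105). Jchain of the same list was not called but stood out on single arrays. It read 9.52 on day 7 array 5, 9.29 and 8.76 on day 14 arrays 7 and 9, and at most 7.55 elsewhere. Of 7 tested neutrophil genes Mmp9 was the only one called, at day 7 (log2 0.70, SE 0.15, adjusted p = 0.0113), and the granulocyte gene S100a8 read 5.82, 5.17 and 7.51 at day 14 against 4.18, 4.12 and 3.91 in uninjured kidney, not called (log2 2.10, SE 0.58, adjusted p = 0.0566). Of 3 tested erythroid and platelet genes Pf4, a platelet chemokine, was the only one called, at day 7 (log2 2.89, SE 0.56, adjusted p = 0.00613). The other differences of that list at day 7 were 0.43 and -0.29.

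**Figure D4:**
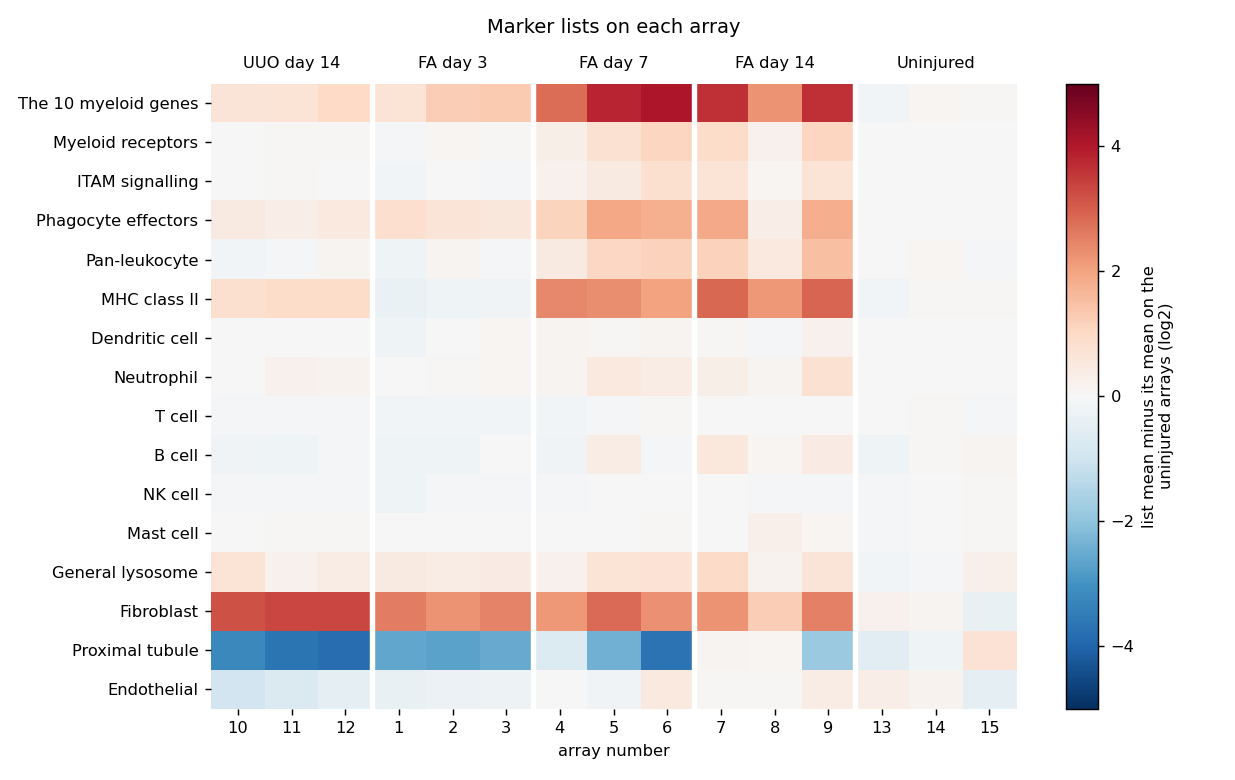
Mean of each marker list on each array minus its mean on the 3 uninjured arrays (colour, log2), with lists down the page and arrays across it by group. The 10 myeloid genes are highest on the FA day 7 and day 14 arrays. The T and NK cell lists, which include genes too dim to test, stay near 0. The fibroblast list is above 0 on every injured array, and the proximal tubule list is below 0 on the UUO and FA day 3 arrays.

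Markers of the sorted cell and of tubule were read in the same fit. Col1a1, the type I collagen chain, read 12.50, 12.10 and 12.08 in UUO, 11.88, 12.09 and 12.19 at day 3, 11.70, 12.02 and 11.78 at day 7, 11.25, 10.62 and 11.64 at day 14 and 6.72, 6.85 and 6.86 in uninjured kidney, and the fibroblast list mean was highest in UUO, at 8.85 to 9.02. By group mean the myeloid genes were highest at days 7 and 14, so the fibroblast list and the myeloid genes did not share an order. This held for Mrc1 too, though its arrays at days 7 and 14 overlapped the uninjured arrays. Pdgfra, the gene of the sort marker, read 6.54, 5.71 and 5.71 in UUO and 6.76, 6.11 and 7.20 at day 3. It read 4.96, 4.89 and 6.65 at day 7 and 5.00, 4.25 and 6.60 at day 14, against 6.43, 5.68 and 5.91 in uninjured kidney. Of these 6 later arrays 4 lay below every uninjured array, while arrays 6 and 9 lay above every one. Pdgfra was not called lower at day 7 or day 14. The mean of 11 proximal tubule markers was 5.41 to 5.97 in UUO, 6.52 to 6.68 at day 3, 5.51 to 8.52 at day 7, 7.36 to 9.35 at day 14 and 8.67 to 9.93 in uninjured kidney. Tubule signal was high in uninjured kidney, where 9 of the 10 genes were low. It was also high on day 14 arrays 7 and 8, at 9.35 and 9.31. The mean over the 10 genes was 9.09 on array 7 and 7.71 on array 8, against 5.30 to 5.55 in uninjured kidney. The part of tubule RNA in these values was not tested.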

How the data were processed

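The values are log2 intensities of 45141 probe sets on each of 15 arrays, deposited by the authors. Per the submitters' processing notes they come from RMA; affy and limma are listed there too, with no version given. They were used as deposited, with no further normalization, and ran from 2.43 to 13.1. The 10 genes, the gene lists and the comparisons were chosen with earlier results of these data known. Probe sets were named through the platform annotation: 28898 carried 1 gene, 551 several and 15692 were unnamed here, and a lookup by Entrez identifier matched 28689 and changed 0 symbols. The brightest probe set stood for each of 17097 genes. Testing was limited to the 13523 genes that passed the 40th percentile of an array on 3 or more arrays, and the other 3574 were too dim.

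A single model with a mean for every group covered the 15 arrays (lmFit, then eBayes, of limma 3.58.1, run under R 4.3.3, with 10 residual degrees of freedom). It was tested beforehand on simulated data. P-values are 2-sided and adjusted by Benjamini-Hochberg within each comparison over all genes tested. Nothing pairs the arrays, since their running numbers are not shared between groups. No pair of arrays was identical. The text names the 10 genes and, from each list, up to 3 called genes with the smallest p in a comparison, or 2 bright ones where none was called, though not all of these. It also names the 10 nearest profiles over all arrays, the 5 nearest within groups, and check genes such as Ptprc and Col1a1. Itgam, Cd163 and Jchain were singled out after their values were seen. A few listed genes were added where a result named for one group was followed into another. Promoters and the motif counts come from the RefSeq table of GRCm38.p6. Alternatives were quantile normalization, median centring, array weights, trend and robust settings, only the 6 arrays compared, other filters on dim genes, the mean of probe sets, a stricter threshold and leaving out each array. Plots were drawn with matplotlib 3.10.9.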

Additional observations from a re-analysis of the deposited data

Results flagged for a closer look

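Differences between injury groups that passed the test are listed here because 2 groups differed under one contrast against the same uninjured arrays. Between UUO and folic acid at day 14 they were those of Lyz2 (log2 -2.92), Ctss (-3.76), Tyrobp (-3.25), C1qc (-2.91), Fcer1g (-1.99) and Laptm5 (-1.72), all lower in UUO. Between folic acid day 7 and day 3 they were those of Lyz2 (3.07), Ctss (2.77), C1qb (3.50), Fcer1g (1.99) and Laptm5 (1.79), all higher at day 7. Between folic acid day 14 and day 3 they were those of Lyz2 (3.19), Ctss (2.79), Tyrobp (2.41), Fcer1g (1.98) and Laptm5 (1.66), all higher at day 14. The genes were chosen with results of these arrays known. The dimmer Laptm5 probe set, which no comparison used, also stood higher at folic acid day 7 than in uninjured kidney, by 1.27 on the log2 scale. Groups of 3 arrays are too small for a rule on single outlying arrays, and array 8 is described above from its values.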

How the results depend on the processing

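The number of the 10 genes called changed in at least 1 setting in 7 of the 8 comparisons and moved by over 1.5 times in 5. For folic acid day 3 against uninjured kidney it was 3, and 5 with array weights and 6 from only the 6 arrays compared, with 2 at an adjusted p under 0.01 (3 to 4 with single arrays left out). For UUO against uninjured kidney it was 2, and 1 with no filter on dim genes, 5 from only the 6 arrays compared and 1 at an adjusted p under 0.01 (1 to 3 with arrays left out). For UUO against folic acid day 14 it was 6, and 3 from the 6 arrays and 2 at 0.01 (4 to 9). For day 7 against day 3 it was 5, and 1 from the 6 arrays and 0 at 0.01 (0 to 8), and for day 14 against day 3 it was 5, and 2 and 2 (3 to 9). Against uninjured kidney 8 to 9 were called at day 7 and 6 to 9 at day 14 over all settings (6 at 0.01, where C1qb was lost), and for day 14 against day 7 there were 0 in every setting. Mrc1 at day 14 turned to -0.12 without uninjured array 15, within a range of -0.12 to 0.80. The uncalled differences between day 14 and day 7 changed sign in several settings. With quantile normalization Ctss was -0.004, Fcer1g 0.023 and Cd68 -0.029; with median centring Ctss was -0.004 and Cd68 -0.018; with array weights Fcer1g was 0.025 and Cd68 -0.115. With arrays left out they ranged from -0.048 to 0.315 for Lyz2, -0.42 to 0.49 for Ctss, -0.52 to 0.54 for Tyrobp, -1.15 to 0.26 for C1qc, -0.36 to 0.23 for Fcer1g, -0.47 to 0.09 for Laptm5, -1.12 to 0.18 for Mrc1 and -0.57 to 0.62 for Cd68. The cause of these shifts was not tested, beyond fewer arrays or a stricter threshold. Leaving out 1 array ended the Mrc1 call in UUO for 8 of the 15 arrays, the C1qc call between UUO and folic acid for 9, the Tyrobp call between day 14 and day 3 for 8, the C1qb call at day 14 against uninjured kidney for 3, and, between day 7 and day 3, the calls of C1qb for 10, Fcer1g for 9, Ctss for 6, Lyz2 for 4 and Laptm5 for 2. No called difference of the 10 genes changed direction in any setting. Over all genes, the calls against uninjured kidney numbered 2244 in UUO (1128 to 3471 over the settings that kept all arrays or only the 6 compared), 2304 at day 3 (1114 to 3439), 1580 at day 7 (619 to 1990) and 767 at day 14 (263 to 1149; 350 to 892 with arrays left out). They were 410 for UUO against day 14 (79 to 529), 94 for day 7 against day 3 (16 to 119), 412 for day 14 against day 3 (110 to 476) and 7 for day 14 against day 7 (0 to 10). No paired analysis was possible because the groups share no replicate numbers. Signals near the bottom of the scale, such as Lyz2 in uninjured kidney, limit how well a difference is known.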
